A study of Mus musculus with 9 samples.

Results

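The ubiquitin-specific proteases (USPs) are the largest class of deubiquitinases, the enzymes that take ubiquitin off other proteins. They were taken here as every row of the count table named Usp plus a number, with Usp18 left out, which gave 49 genes of 22100. Of these, 46 passed the filter on low counts. Usp9y had 0 counts in all 9 libraries, Usp26 had at most 3 and Usp43 at most 9, so none of these 3 was tested. The rule goes by gene name.

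The data are estimated counts per gene from poly(A)-enriched RNA of cultured mouse cortical astrocytes, the support cells of the cerebral cortex. 3 libraries came from cells exposed to 50 µM noradrenaline for 90 min and collected then (called 90 min below). 3 came from cells given the same exposure, moved to medium without noradrenaline and collected 3 days after noradrenaline was added (called 3 d). 3 were controls that received no stimulation and are titled with the 3 day time. No genotype, strain, sex or age is given for any group. All groups were grown in medium with 10% serum, and the labels do not say whether the controls had a change of medium. Treatment, collection time and medium change therefore cannot be told apart in the comparison of 90 min with control. The labels also do not say whether replicates were separate cultures, and a p-value here weighs a difference only against library spread that could be technical.

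Ubiquitin is a small protein that is joined to other proteins in chains or singly, and it marks them for the proteasome, for sorting to lysosomes or for changes in activity. USPs cut these links with a cysteine protease fold and so set how long their targets last. Noradrenaline acts on astrocytes through adrenoceptors, which raise calcium and cyclic AMP, and cyclic AMP drives transcription through the factor CREB. USPs are known to act on adrenoceptors themselves, on cell cycle and clock proteins, on histones and on the proteasome.

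The summed counts of a library lay between 15529158 and 18729980, with 14920 to 15397 genes detected in each. A count of 0 allows 3 counts, which is 0.160 to 0.193 CPM (counts scaled to a common library size), and this limit covers counting error only. The fit tested 13090 genes. The 11 astrocyte markers summed to 4484 to 4878 CPM at 90 min, 4468 to 4665 CPM at 3 d and 4588 to 4800 CPM in controls, mostly from Vim, whereas Gfap averaged 1.52, 1.45 and 1.13 CPM. The fibroblast and meningeal markers summed to 2196 to 2704 CPM at 90 min, 2258 to 2485 CPM at 3 d and 2675 to 2964 CPM in controls, led by Col1a1. Pdgfrb, also on that list, averaged 199.5 CPM at 90 min, 383 CPM at 3 d and 390.2 CPM in controls, with the 90 min libraries below the others. The oligodendrocyte lineage markers summed to 35.8 to 37.4 CPM at 90 min, 25.4 to 27.2 CPM at 3 d and 24.7 to 26.8 CPM in controls. The endothelial markers summed to 22.3 to 26.2 CPM, 38.3 to 44.7 CPM and 36.7 to 40.2 CPM, so both sums at 90 min lay outside the range of the other groups. Each sum rested mainly on 1 gene. Tek, nearly all of the endothelial sum, averaged 24.6 CPM at 90 min, 40.8 CPM at 3 d and 38.8 CPM in controls. Mbp, most of the oligodendrocyte sum, averaged 28.0, 16.2 and 16.0 CPM. Pdgfra, on the same list as Mbp, went the other way at 90 min, at 5.97, 7.29 and 7.08 CPM. At 90 min 2 of the 11 astrocyte markers were called higher and 5 lower, beside 17.5% and 15.5% of all genes tested. The pericyte and smooth muscle markers summed to 315 to 363 CPM at 90 min, 280 to 310 CPM at 3 d and 344 to 354 CPM in controls, with the 3 d libraries below the others. The microglial genes P2ry12 and C1qa, the endothelial gene Cldn5 and the oligodendrocyte gene Olig2 were at 0 in every library. The part that other cells in the cultures play in the results below was not tested. In such bulk samples fewer cells of a type and less RNA per cell cannot be told apart.

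At the end of the exposure 12 of the 46 tested USPs had risen and 8 had fallen, while 26 were not called. These are calls at an adjusted p below 0.05 by edgeR's quasi-likelihood test, with Benjamini-Hochberg adjustment over all 13090 genes, and every adjusted p below comes from that test. Among all genes tested 17.5% were called higher and 15.5% lower, against 26.1% and 17.4% of the tested USPs. The log2 fold changes of the USPs had a median of −0.02 and a middle range of −0.16 to 0.22, beside a median of 0.00 and a middle range of −0.15 to 0.13 over all genes tested. Under upper-quartile scaling of the libraries the USP calls were 11 higher and 11 lower. 4 USPs were called with a change of at least 2-fold, beside 3.81% of all genes tested. The 90 min and control libraries did not overlap for 14 USPs on the higher side and 11 on the lower side, beside 22.3% and 21.2% of all genes tested.

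The largest rise belonged to Usp2 (Entrez 53376), whose enzyme removes ubiquitin from cyclin D1 and from clock proteins and whose own mRNA cycles with the day in many tissues. It stood at 127, 120 and 122 CPM at 90 min, at 13.3, 13.7 and 15.4 CPM at 3 d and at 13.4, 13.8 and 12.8 CPM in controls. All 90 min libraries lay far above every other library, and the 3 d and control libraries overlapped. The rise at 90 min was 9.24-fold (log2 fold change 3.21, SE 0.06, edgeR adjusted p = 2.49e-17). An unnamed gene, Gm39325, overlaps an exon of Usp2 on the opposite strand by 200 bases in the GENCODE M21 annotation and had at most 29 counts in any library, against at least 207 for Usp2.

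Usp38 (Entrez 74841), which has been described as a regulator of the antiviral kinase TBK1, came next. It was at 141, 140 and 142 CPM at 90 min, at 57.6, 53.6 and 51.2 CPM at 3 d and at 48.4, 50.1 and 54.4 CPM in controls. The 90 min libraries were close together and stood clear of the rest, a 2.77-fold rise (log2 1.47, SE 0.05, edgeR adjusted p = 1.46e-13). Exons of Usp38 overlap those of Gm9725 on the opposite strand by up to 1174 bases, and Gm9725 has no row in the count table. Usp36 (Entrez 72344), a nucleolar enzyme that acts in ribosomal RNA processing and on MYC, was at 103, 93.5 and 103 CPM at 90 min, at 43.4, 38.4 and 39.3 CPM at 3 d and at 34.7, 40.5 and 40.9 CPM in controls. It rose 2.58-fold, again with no overlap between 90 min and control libraries (log2 1.37, SE 0.07, edgeR adjusted p = 8.80e-12).

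Usp37 (Entrez 319651), which removes ubiquitin from cyclin A and so promotes entry into S phase, was at 61.3, 57.3 and 70.8 CPM at 90 min, at 32.2, 33.0 and 33.5 CPM at 3 d and at 33.6, 33.3 and 32.0 CPM in controls. Its 1.91-fold rise left all 90 min libraries above the others (log2 0.94, SE 0.07, edgeR adjusted p = 3.92e-09). Exons of Usp37 and Cnot9 overlap by 134 bases on opposite strands, and the sources used here do not say whether counting used strand. Usp9x (Entrez 22284), a very large X-linked enzyme that stabilises the survival protein MCL1 and acts in TGF-beta and Wnt signalling, was at 767, 771 and 834 CPM at 90 min, at 436, 454 and 416 CPM at 3 d and at 405, 430 and 452 CPM in controls. It rose 1.84-fold without overlap (log2 0.88, SE 0.05, edgeR adjusted p = 6.35e-11).

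Usp49 (Entrez 224836), a histone H2B deubiquitinase linked to splicing, was at 43.8, 40.5 and 48.7 CPM at 90 min, at 31.4, 28.6 and 24.7 CPM at 3 d and at 26.1, 28.3 and 25.6 CPM in controls. The 90 min values were higher than all others, a 1.66-fold rise (log2 0.73, SE 0.09, edgeR adjusted p = 2.20e-06). Its exons overlap those of Gm20517 on the same strand and of Tomm6 on the opposite strand, so its counts carry that uncertainty. The other 6 risen USPs changed less. Usp16, an H2A deubiquitinase, had a log2 fold change of 0.55, and its exons overlap by 192 bases with Cct8, a gene on the opposite strand with up to 5422 counts in a library. Usp32, which acts on the endosomal GTPase RAB7, Usp39, a spliceosome protein without catalytic activity, and Usp42, which acts on p53, were at 0.35, 0.32 and 0.27. Usp28, which stabilises MYC, and Usp12, which works with WDR48, were at 0.24 and 0.18.

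**Figure D1:**
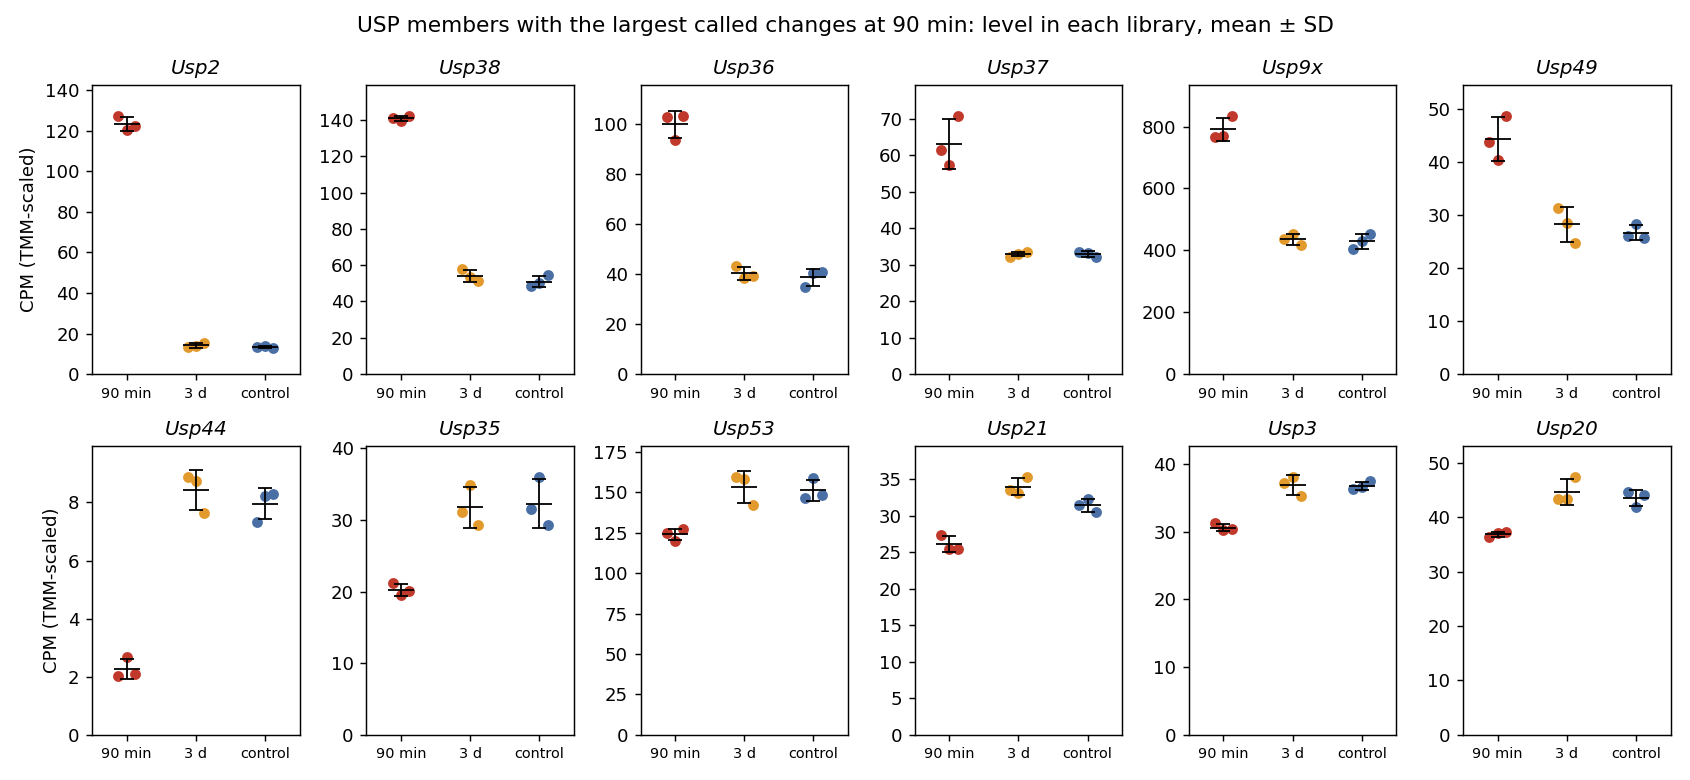
Level of the 6 USPs with the highest and the 6 with the lowest log2 fold change among those called at 90 min, in CPM after TMM scaling, in the 90 min, 3 d and control libraries (points, 3 per group), with the mean and SD as bars; every axis starts at 0. The upper row holds the risen genes, with Usp2 at 120 to 127 CPM in 90 min libraries, and the lower row the fallen genes, with Usp44 at 2.01 to 2.67 CPM in 90 min libraries.

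The steepest fall belonged to Usp44 (Entrez 327799), a histone H2B deubiquitinase that also guards the spindle checkpoint in mitosis. It had 36, 48 and 35 counts at 90 min, 169, 154 and 144 at 3 d and 136, 130 and 134 in controls, which is 2.01, 2.67 and 2.10 CPM, 8.89, 8.74 and 7.63 CPM, and 7.34, 8.23 and 8.29 CPM. Every 90 min library was below every other library. The log2 fold change was −1.81 (SE 0.15, edgeR adjusted p = 1.44e-08), a level 3.50-fold lower. Usp35 (Entrez 244144), which has been described at mitochondria as a brake on Parkin-driven mitophagy, was at 21.1, 19.5 and 20.1 CPM at 90 min, at 31.1, 34.9 and 29.3 CPM at 3 d and at 31.5, 36.0 and 29.2 CPM in controls. It fell 1.59-fold, with the 90 min libraries below all others (log2 −0.67, SE 0.09, edgeR adjusted p = 6.53e-06).

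The remaining falls were at most 1.22-fold. Usp53 (Entrez 99526), a tight junction protein long classed as inactive, averaged 124 ± 3.59 CPM at 90 min and 151 ± 6.45 CPM in controls (SD, n = 3 each; log2 −0.29, SE 0.05, edgeR adjusted p = 0.000199). Usp21 (Entrez 30941), an H2A deubiquitinase, averaged 26.1 ± 1.09 CPM at 90 min and 31.4 ± 0.875 CPM in controls (SD, n = 3 each; log2 −0.27, SE 0.06, edgeR adjusted p = 0.00327). Usp3 (Entrez 235441), which acts on H2A in DNA repair, averaged 30.6 ± 0.535 CPM at 90 min and 36.8 ± 0.591 CPM in controls (SD, n = 3 each; log2 −0.27, SE 0.06, edgeR adjusted p = 0.00164). In these 3 genes the groups did not overlap. Usp54 had a log2 fold change of −0.23 (edgeR adjusted p = 0.0304), and its call was lost without 90 min library 1 (0.133) or 2 (0.0945) and without control 1 (0.0734), 2 (0.0792) or 3 (0.0596). Usp25, which acts in endoplasmic reticulum quality control, was at −0.16 (edgeR adjusted p = 0.0274) with overlapping groups.

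Usp20 and Usp33 code for a related pair of enzymes known to take ubiquitin off the beta2-adrenoceptor, which lets the internalised receptor return to the cell surface. Usp20 (Entrez 74270) was at 36.3, 37.0 and 37.3 CPM at 90 min, at 43.4, 43.3 and 47.5 CPM at 3 d and at 44.5, 41.8 and 44.0 CPM in controls. It fell to a lower level in all 90 min libraries (log2 −0.24, SE 0.06, edgeR adjusted p = 0.00317). Usp33 (Entrez 170822) was at 85.5, 83.4 and 92.8 CPM at 90 min, at 85.8, 87.9 and 88.9 CPM at 3 d and at 89.9, 89.6 and 83.7 CPM in controls, and these groups overlapped (log2 −0.01, SE 0.05, edgeR adjusted p = 0.912). Whether the changes of these 2 genes differ was not tested. Exons of Usp33 overlap those of Gm43857 on the opposite strand by up to 1409 bases, and no counts are given for Gm43857. Usp8, which acts on receptors at the endosome together with STAM proteins, was at −0.02 on the log2 scale and not called (edgeR adjusted p = 0.772).

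**Figure D2:**
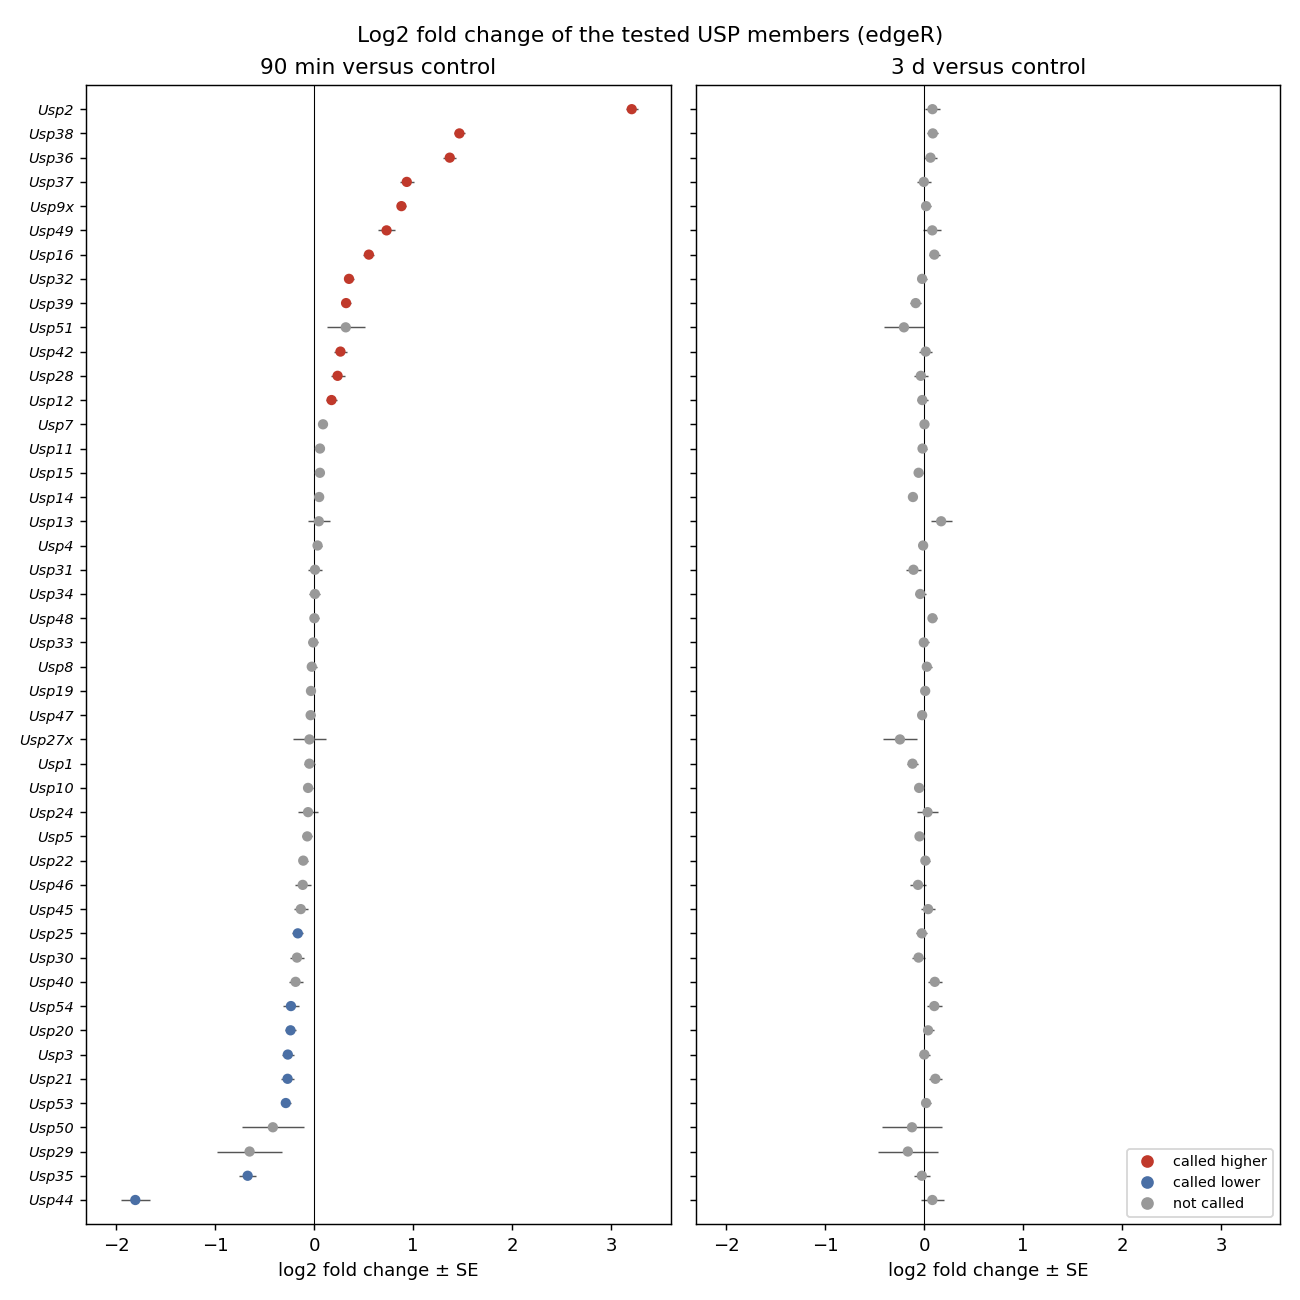
Log2 fold change with its SE for the 46 tested USPs at 90 min (left) and at 3 d (right), each against control, ordered by the value at 90 min; red points were called higher, blue points lower and grey points were not called. The values run from −1.81 to 3.21 at 90 min and from −0.24 to 0.17 at 3 d.

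Related USP genes were set side by side at 90 min, with no test of the difference within a pair and with some genes in several pairs. Of 19 pairs of related genes, 17 had both members tested. In 4 pairs both genes were called in opposite directions, in 2 pairs in the same direction, in 4 pairs 1 gene was called and in 7 pairs neither was. The opposite pairs were Usp2 and Usp21 (log2 3.21 and −0.27), Usp38 and Usp35 (1.47 and −0.67), Usp49 and Usp44 (0.73 and −1.81), and Usp28 and Usp25 (0.24 and −0.16). Usp49 and Usp44 code for closely related H2B enzymes. Usp36 and Usp42 rose together (1.37 and 0.27), and Usp53 and Usp54 fell together (−0.29 and −0.23).

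Usp24, another very large USP, was set beside Usp9x and was not called, at −0.06 on the log2 scale (SE 0.10, edgeR adjusted p = 0.704). Its libraries spread widely, at 90.0, 85.3 and 101 CPM at 90 min, 106, 113 and 77.3 CPM at 3 d and 92.9, 107 and 89.3 CPM in controls. Usp12 rose while Usp46, its close relative and like it a partner of WDR48, was not called (log2 −0.12, edgeR adjusted p = 0.310). Of the trio Usp4, Usp11 and Usp15, which share an extra amino-terminal region and act in TGF-beta signalling, 0 were called, with log2 values of 0.03, 0.06 and 0.06. The enzymes of the proteasome and of free ubiquitin chains, Usp14, Usp5 and Usp13, were at 0.05, −0.07 and 0.05, and 0 of these 3 were called either. Usp22, the deubiquitinase of the SAGA coactivator, was at −0.11 (edgeR adjusted p = 0.0599), and its relatives Usp27x and Usp51 were at −0.05 and 0.32, not called. Reads of these 3 can be shared where their sequences match, so their values are uncertain.

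**Figure D3:**
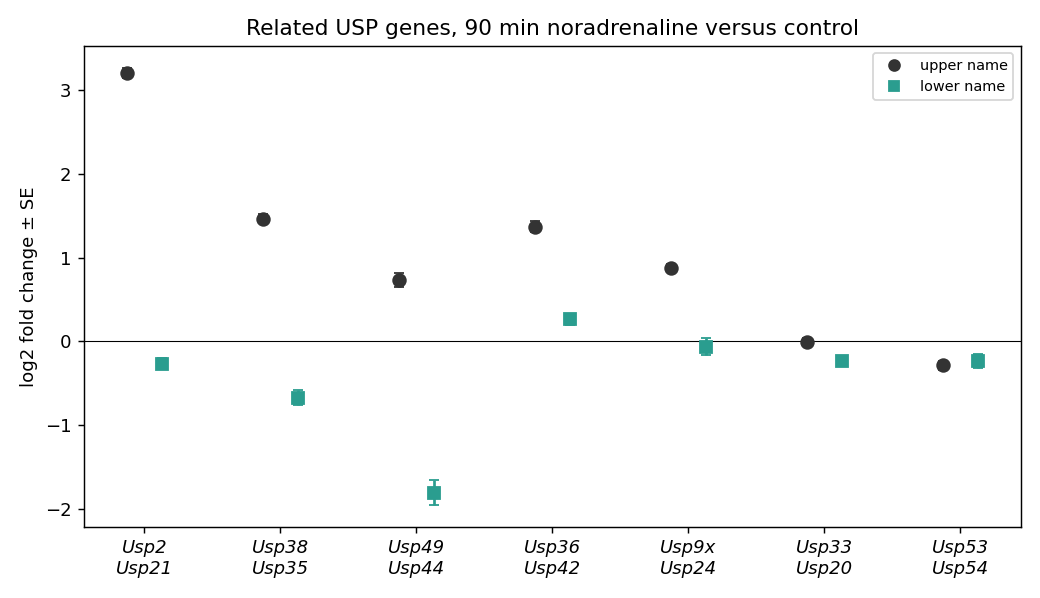
Log2 fold change at 90 min against control, with its SE, for 7 pairs of related USPs; circles are the upper name of each pair and squares the lower name. Usp2 and Usp21, Usp38 and Usp35, and Usp49 and Usp44 lie on opposite sides of 0, while Usp36 and Usp42 lie above it and Usp53 and Usp54 below it.

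The groups by role are small, and their counts stand beside 17.5% higher and 15.5% lower over all genes tested. The genes of p53, MYC and genome maintenance had 4 of 8 tested members risen and 0 fallen (median log2 0.16, all genes tested 0.00). These were Usp36, Usp37, Usp42 and Usp28, whereas Usp7, the deubiquitinase of MDM2 and p53, was at 0.09 (edgeR adjusted p = 0.103). The 8 chromatin enzymes split into 2 risen (Usp16 and Usp49), 3 fallen (Usp44, Usp21 and Usp3) and 3 not called, with a median of −0.08. The 4 enzymes of the endoplasmic reticulum and mitochondria had 0 risen and 2 fallen (Usp35 and Usp25; median −0.17). Of the 4 genes for receptor sorting and endosomes 1 rose (Usp32) and 1 fell (Usp20), with a median of −0.02.

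The sequence before the transcription start was searched for short motifs and is printed below for 6 genes. These are the risen genes Usp2, Usp38, Usp36 and Usp37, with Usp21 and Usp35, the fallen partners of Usp2 and Usp38. RefSeq promoter windows of the GRCm38.p6 build were found for 38 of the 49 USPs, and 250 bases before the annotated start were searched on both strands. Usp9x, Usp44, Usp53, Usp33 and Usp42 had no entry. The full cyclic AMP response element TGACGTCA, the site of CREB, was in 1.55% of all 32851 windows and in 0 of the 38 USP genes. Its core TGACG, which the full element contains, was in 17.8% of all windows and in 9 of the 38 genes. These 9 were the risen genes Usp16, Usp36, Usp37 and Usp38, the fallen genes Usp25 and Usp54, and Usp10, Usp11 and Usp13, which were not called. Usp36 held it 3 times and Usp54 2 times. Usp49, also among the 6 USPs with the highest log2 fold change, had a window without the core, which is not printed. The AP-1 letters TGANTCA, found in 6.75% of all windows, were in 3 of the 38 genes (Usp38, Usp31, which was not called, and Usp26, which was not tested), and the NR4A element AAAGGTCA, in 1.34% of windows, was in 0 of the 38. The E-box letters CACGTG, found in 6.02% of all windows, were in 3 of the 38 genes (Usp16, which rose, and Usp31 and Usp4, which were not called). The sequences below run 5′ to 3′ with the core TGACG or its complement CGTCA in capitals. Usp2 is at chr9:44084670-44084919 (plus strand), Usp21 at chr1:171287962-171288211 (minus), Usp38 at chr8:81014907-81015156 (minus), Usp35 at chr7:97332110-97332359 (minus), Usp36 at chr11:118290245-118290494 (minus) and Usp37 at chr1:74505822-74506071 (minus). A match says only that these letters occur in the window, and other start sites of these genes were not examined.
Usp2: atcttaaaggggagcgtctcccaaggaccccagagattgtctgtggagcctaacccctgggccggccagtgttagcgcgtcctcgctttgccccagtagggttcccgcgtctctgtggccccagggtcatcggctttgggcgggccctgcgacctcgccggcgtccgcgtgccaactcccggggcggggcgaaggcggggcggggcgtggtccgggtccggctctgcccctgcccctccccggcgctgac
Usp21: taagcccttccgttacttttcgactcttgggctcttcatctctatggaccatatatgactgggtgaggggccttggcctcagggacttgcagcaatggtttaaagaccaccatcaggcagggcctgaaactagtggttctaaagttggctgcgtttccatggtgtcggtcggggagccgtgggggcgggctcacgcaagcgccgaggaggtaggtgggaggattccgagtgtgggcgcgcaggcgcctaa
Usp38: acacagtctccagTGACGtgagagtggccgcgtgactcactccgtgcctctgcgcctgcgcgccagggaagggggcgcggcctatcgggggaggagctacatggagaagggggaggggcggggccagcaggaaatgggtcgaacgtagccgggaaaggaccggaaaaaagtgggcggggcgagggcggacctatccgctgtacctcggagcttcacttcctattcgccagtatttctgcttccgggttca
Usp35: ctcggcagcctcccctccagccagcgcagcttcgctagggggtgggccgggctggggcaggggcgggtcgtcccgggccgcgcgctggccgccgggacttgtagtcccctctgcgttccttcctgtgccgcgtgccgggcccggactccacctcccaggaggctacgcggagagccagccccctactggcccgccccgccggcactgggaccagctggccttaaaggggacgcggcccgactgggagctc
Usp36: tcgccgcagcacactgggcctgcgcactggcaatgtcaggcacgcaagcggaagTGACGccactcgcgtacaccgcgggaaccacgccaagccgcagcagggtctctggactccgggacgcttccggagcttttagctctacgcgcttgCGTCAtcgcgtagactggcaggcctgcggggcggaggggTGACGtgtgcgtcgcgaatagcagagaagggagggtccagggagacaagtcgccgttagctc
Usp37: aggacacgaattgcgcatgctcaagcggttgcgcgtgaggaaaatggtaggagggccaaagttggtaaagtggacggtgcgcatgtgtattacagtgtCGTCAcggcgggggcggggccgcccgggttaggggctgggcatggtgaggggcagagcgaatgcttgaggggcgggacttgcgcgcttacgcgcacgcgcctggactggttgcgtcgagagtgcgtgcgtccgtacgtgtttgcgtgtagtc

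Usp9x carried the largest single share of USP reads. The summed level of all 49 USPs was 4210 ± 143 CPM at 90 min, 3555 ± 85.1 CPM at 3 d and 3555 ± 33.3 CPM in controls (SD, n = 3 each). The 90 min libraries were all above the others. Usp9x made up 18.5% to 19.1% of that sum at 90 min, at most 12.6% at 3 d and 11.5% to 12.6% in controls. Without it the sum was 3420 ± 107 CPM at 90 min, 3119 ± 68.4 CPM at 3 d and 3126 ± 13.6 CPM in controls (SD, n = 3 each). No test was run on these sums.

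To set levels of different genes against each other they were taken per length, as mean CPM per kilobase of the longest protein-coding transcript in GENCODE M21, which need not be the transcript the cells used. By this measure Usp9x was the most abundant USP at 90 min (66.5 CPM per kb), and it ranked below Usp5 and Usp19 in controls, which had 36.1, 50.9 and 43.9 CPM per kb. Usp5 takes apart free ubiquitin chains, and Usp19 sits in the endoplasmic reticulum membrane. Usp2 ranked 7 of 49 at 90 min (31.9 CPM per kb) and 39 of 49 in controls (3.45 CPM per kb). Usp38 ranked 9 at 90 min and 22 in controls. Usp49 had 5.37 CPM per kb at 90 min and 3.23 in controls, and Usp44 had 0.924 CPM per kb at 90 min and 3.25 in controls.

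**Figure D4:**
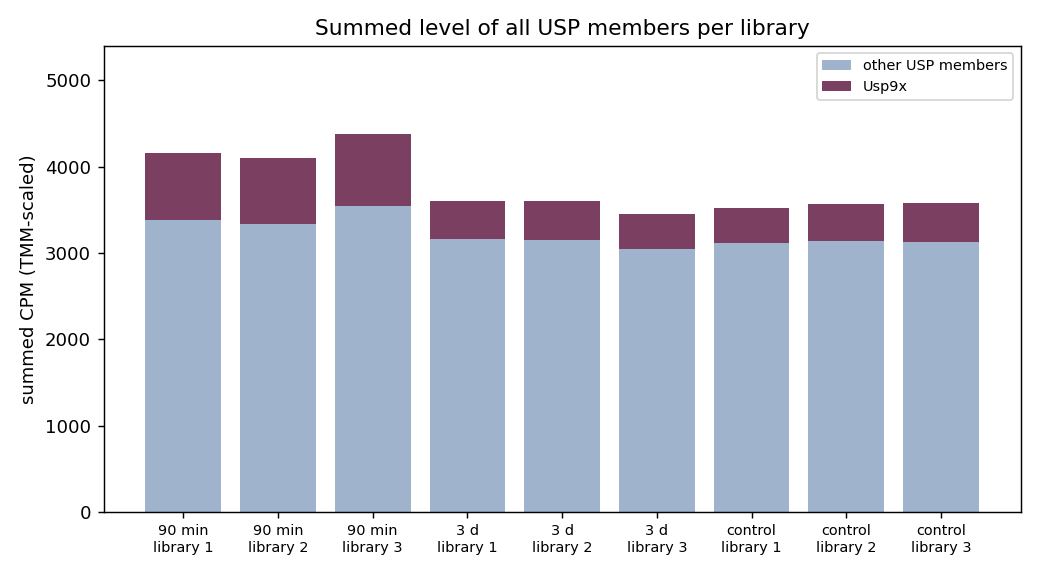
Summed level of all 49 USPs in each library, in CPM after TMM scaling, with the part of Usp9x on top and that of the other USPs below it. The 90 min libraries reach 4104 to 4373 CPM, above the 3456 to 3607 CPM of the 3 d libraries and the 3517 to 3579 CPM of the controls.

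At 3 d 0 of the 46 tested USPs were called against control by edgeR, and DESeq2 also called 0, with no adjusted p for 12 of them. Of all genes tested 0.0382% were called higher and 0.0764% lower. An unadjusted edgeR p below 0.05 was held by 2 USPs (Usp14 and Usp1), beside 9.33% of all genes tested, and by 1 USP with DESeq2. The log2 fold changes at 3 d ran from −0.24 (Usp27x) to 0.17 (Usp13), with a median of 0.00, as over all genes tested. Usp14, the proteasome-bound USP, averaged 105 ± 0.946 CPM at 3 d and 114 ± 5.64 CPM in controls (SD, n = 3 each), without overlap (log2 −0.11, SE 0.04, edgeR adjusted p = 0.421). Exons of Usp14 overlap those of Thoc1 on the opposite strand by up to 2169 bases. Thoc1 had up to 926 counts in a library, against at least 1706 for Usp14. Usp1, which acts on the DNA repair proteins FANCD2 and PCNA, averaged 60.3 ± 3.27 CPM at 3 d and 65.4 ± 1.76 CPM in controls (SD, n = 3 each; log2 −0.12, SE 0.05, edgeR adjusted p = 0.515).

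The genes that had moved most at 90 min had values close to 0 on the log2 scale at 3 d. Against control, Usp2 was at 0.08 (SE 0.08, edgeR adjusted p = 0.790), Usp38 at 0.09 (SE 0.06, edgeR adjusted p = 0.672) and Usp36 at 0.06 (SE 0.07, edgeR adjusted p = 0.838). Usp44 was at 0.08 (SE 0.12, edgeR adjusted p = 0.895). The log2 values at 3 d of the 20 USPs called at 90 min ran from −0.08 to 0.11. The 2 comparisons share the control libraries. Groups at 3 d and in controls did not overlap for 3 USPs on the higher side and 4 on the lower side, beside 8.03% and 8.11% of all genes tested.

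Set directly against 90 min, the 3 d libraries had 10 USPs higher and 14 lower of 46, beside 18.7% and 20.4% of all genes tested. These groups did not overlap for 10 USPs on the higher side and 16 on the lower side, beside 23.3% and 23.8% of all genes tested. Usp2 averaged 14.1 ± 1.13 CPM at 3 d and 123 ± 3.54 CPM at 90 min (SD, n = 3 each), which is −3.12 on the log2 scale (SE 0.06, edgeR adjusted p = 2.50e-17). Usp38, Usp36, Usp37, Usp9x and Usp49 had log2 fold changes of −1.38, −1.31, −0.94, −0.86 and −0.65, and all 5 were called. Usp44 averaged 8.42 ± 0.688 CPM at 3 d and 2.26 ± 0.354 CPM at 90 min (SD, n = 3 each), which is 1.89 on the log2 scale (SE 0.14, edgeR adjusted p = 6.19e-09), and Usp35 was at 0.65. Usp24 was at 0.10 (edgeR adjusted p = 0.492), and without 3 d library 3, where it was lowest, it was at 0.24 (edgeR adjusted p = 0.0139). This comparison shares its 90 min libraries with the comparison of 90 min with control, and time in culture and the medium exchange differ between its groups.

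Other deubiquitinases changed at 90 min in 13 of 36 tested genes, 6 higher and 7 lower (median log2 0.03, all genes tested 0.00). These are 16.7% and 19.4% of the list, near the 17.5% and 15.5% of all genes tested. The list includes Cyld, Pan2 and Uspl1, which were listed as having the USP fold but fall outside the name rule. Of these 3 genes 1 was called higher (Uspl1) and 2 lower. Josd1, a Josephin-type deubiquitinase, rose 2.08-fold, at 123 ± 3.83 CPM at 90 min and 58.8 ± 2.61 CPM in controls (SD, n = 3 each; log2 1.06, SE 0.05, edgeR adjusted p = 4.86e-12). Stambpl1, an endosomal enzyme for one type of ubiquitin chain, and Tnfaip3, which codes for the NF-kB inhibitor A20, both fell (log2 −0.63 each, edgeR adjusted p = 1.47e-05 and 2.80e-05). The 14 OTU-type enzymes tested, to which Tnfaip3 belongs, had 1 risen and 1 fallen.

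Genes for the protein partners of USPs had 7 of 14 members risen and 1 fallen at 90 min, beside 17.5% and 15.5% of all genes tested (median log2 0.12, all genes tested 0.00). Atxn7, which anchors the USP22 module to SAGA, was at 145 ± 16.4 CPM at 90 min and 39.9 ± 1.05 CPM in controls (SD, n = 3 each; log2 1.86, SE 0.07, edgeR adjusted p = 1.70e-13). G3bp2, whose protein binds USP10 and forms stress granules, and the proteasome gene Psmd2, whose protein holds USP14, were at 0.34 and 0.20 (edgeR adjusted p = 2.86e-06 and 0.000351). Stam, a partner of USP8, was the fallen gene (log2 −0.17, edgeR adjusted p = 0.0192). The ubiquitin-activating enzyme gene Uba6 rose, to 89.4 ± 6.54 CPM at 90 min against 56.1 ± 2.12 CPM in controls (SD, n = 3 each; log2 0.67, SE 0.06, edgeR adjusted p = 2.47e-08). At 3 d edgeR called 0 of the other deubiquitinases and 0 of the partner genes, and Uba6 was not called either (log2 −0.03, edgeR adjusted p = 0.938).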

How the data were processed

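RNA from 9 libraries was analysed, 3 each at 90 min, 3 d and control, grouped by the sample titles. The table deposited by the authors holds estimated counts for each gene, all of them whole numbers. Salmon 1.8.0, fastp 0.23.4 and the mm39 build are named per the submitters' processing notes. The sources used here do not give the annotation, the use of strand, or how values were rounded and summed to genes.

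Counts were tested in R 4.3.3 with edgeR 4.0.16 (filterByExpr with minimum count 10 and total 15, TMM factors, 1 fit of all 9 libraries, two-sided quasi-likelihood tests, Benjamini-Hochberg over all genes tested). The SE is the log2 fold change divided by the square root of F. Levels are CPM after TMM scaling. 1 row without a symbol held at most 0.000668% of a library and was kept under its Entrez ID. No replicates matched within sampling noise (chi-square per degree of freedom 2.40 to 7.13).

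The members and lists were chosen with earlier results of these data known. The genes given in full are the USPs called at 90 min whose log2 fold change was among the top 6 or bottom 6, averaging 1 or more in log2 CPM, then USPs called at 3 d, Usp20 and Usp33, and their relatives in a written list. Other genes named were chosen after their values were seen or from the lists. Alternatives were RLE and upper-quartile scaling, other filters, a fold threshold, DESeq2 1.42.0, a replicate block, the 2 compared groups fitted alone, and the omission of single libraries. Promoter sequences are RefSeq's (GRCm38.p6), a different build from the authors', and no coordinates were converted.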

Additional observations from a re-analysis of the deposited data

Results flagged for a closer look

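For 14 of the 16 USPs given in full the change at 90 min and the change at 3 d, both against control, differed by the direct test of 3 d against 90 min (edgeR adjusted p below 0.05), beside 18.7% higher and 20.4% lower among all genes tested. All 14 were called at 90 min and most were chosen for their change there, and the same 90 min libraries enter this test, so the count is a description. The log2 fold changes at 3 d against 90 min were −3.12 for Usp2, −1.38 for Usp38, −1.31 for Usp36, −0.94 for Usp37, −0.86 for Usp9x, −0.65 for Usp49 and −0.25 for Usp42. They were 1.89 for Usp44, 0.65 for Usp35, 0.38 for Usp21, 0.34 for Usp54, 0.31 for Usp53, 0.28 for Usp20 and 0.27 for Usp3. Their edgeR adjusted p ran from 2.50e-17 (Usp2) to 0.00577 (Usp42).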

How the results depend on the processing

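Under a fold threshold of 1.2, which asks for more than a non-zero change, the USPs called at 90 min numbered 7 higher and 2 lower, and at 3 d against 90 min 2 higher and 9 lower. Usp53, Usp21, Usp3, Usp20, Usp54 and Usp42 lost their calls there in both comparisons. Under the other alternatives that kept all libraries, the counts at 90 min stayed at 11 to 12 higher and 7 to 11 lower. Upper-quartile scaling shifted the median log2 fold change of all genes at 90 min by −0.05 and the share of calls that were higher to 38.1%, against 53.1% with TMM. Leaving out each library in turn gave 10 to 12 USPs higher and 6 to 9 lower at 90 min, 8 to 12 higher and 13 to 14 lower at 3 d against 90 min, and 0 in either direction at 3 d against control. Usp2, Usp38, Usp36, Usp37, Usp9x, Usp49, Usp44 and Usp35 kept their calls and directions at 90 min under all 17 alternatives, with Usp2 between 3.16 and 3.23 and Usp44 between −1.94 and −1.73 on the log2 scale. The replicate numbers did not pair the libraries: same-numbered libraries had correlations of −0.148 to 0.0491 between their deviations from the group means, and 0 of 9 libraries correlated best with their own number. With the replicate block the counts were 12 higher and 7 lower at 90 min, the lost call being Usp54 (adjusted p = 0.0578), and 8 higher and 13 lower at 3 d against 90 min.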
